A study of Mus musculus with 12 samples.

Results

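The 10 genes described here are vimentin (Vim), 3 genes of epithelial and mesenchymal cell adhesion (Cdh1, Cdh2 and Epcam) and 6 transcription factors of the epithelial-mesenchymal transition, EMT (Snai1, Snai2, Zeb1, Zeb2, Twist1 and Prrx1). They were picked by gene name from a table of raw counts for 57278 genes, and all 10 were found there. The table holds bulk RNA sequencing of 3 mouse pancreatic tumor cell lines, DDKC_9750, DDKC_9790 and DDKC_9804, each left untreated or treated with recombinant DKK3 protein (rDKK3). Every line and condition has 2 libraries, which gives 12 libraries in all.

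All 3 lines came from tumors of DDKC mice, which are Dkk3-/- and express Cre from the Ptf1a locus. Cre is therefore active in the pancreas, whereas the Dkk3 knockout, made by replacing an exon that holds the secretion signal, is present in every cell of the mouse. Untreated and treated samples share this genotype, and no line with an intact Dkk3 gene is among these libraries. The sample labels do not give the concentration or duration of rDKK3, nor whether paired libraries were made from independent cultures. Dkk3 itself had 1 count over the 12 libraries, found in DDKC_9750 with rDKK3, so the targeted gene was at or near 0 in every library.

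Epithelial cells are held together by E-cadherin, the product of Cdh1, and by the adhesion molecule EpCAM. In EMT, cells lower these proteins, switch to N-cadherin (Cdh2) and build an intermediate filament network of vimentin. Zinc finger factors of the Snail and Zeb families repress Cdh1 through E-box motifs in its promoter, and the factors Twist1 and Prrx1 act in the same transition. In pancreatic tumors many cells sit between these states and express epithelial and mesenchymal genes together.

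Total counts ran from 7520741 to 24541083 in the 6 untreated libraries and from 3822987 to 11567095 in the 6 treated ones, so the treated side is the less precise. The 2 libraries of a line and condition agree within sampling noise once a shift between lower- and higher-numbered libraries is allowed for, with a mean deviance per degree of freedom of 0.764 over 12979 genes. Their counts were therefore summed and counted as 1 sample, leaving 6 samples, and n is the number of lines. Levels are CPM, counts scaled to a common library size after TMM normalization, and 3 counts, the floor below which a value cannot be told from 0, correspond to 0.0856 to 0.292 CPM. Because whole cultures were measured, fewer cells of a type and less RNA per cell cannot be told apart.

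Markers of ductal epithelium, the tissue that these tumors resemble, were present as a group in all lines. Their summed level ran from 5084 to 9190 CPM in untreated and from 3443 to 7551 CPM in treated samples, with 7 of 8 markers tested, but Cldn4 stayed at or under 0.700 CPM and Muc1 had line means of 218 CPM in DDKC_9750, 12.8 in DDKC_9790 and 0.682 in DDKC_9804. Of 10 fibroblast markers, whose RNA could add to mesenchymal genes, 6 were below 1 CPM in every sample, and their sum ran from 7.28 to 13.3 CPM in untreated and from 5.75 to 12.4 CPM in treated samples. The highest of these fibroblast markers was Col1a1 at up to 11.2 CPM, while Dcn, Lum, Dpt and Thy1 were at or under 0.0975 CPM. Acta2, a myofibroblast gene listed here with the mesenchymal genes, was not tested. The low-count filter, set by condition, removes genes that lack enough counts outside a single line. Acta2 is therefore missing from the counts of mesenchymal genes called between lines. Its line means were 82.6 CPM in DDKC_9750, 0.0755 in DDKC_9790 and 0.186 in DDKC_9804. Leukocyte markers summed to 9.57 to 29.2 CPM untreated and 10.5 to 46.1 CPM treated, nearly all from Cd68 and Csf1r, with Ptprc at or under 0.0975 CPM and Adgre1 and Cd3e at 0. Endothelial markers summed to 1.40 to 15.5 CPM untreated and 0.877 to 17.7 CPM treated, with 5 of 6 below 1 CPM in every sample, and acinar markers to 0.799 to 12.2 CPM untreated and 0.986 to 11.99 CPM treated, with 5 of 8 at 0 everywhere and Cela1 the highest at up to 11.8 CPM.

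Divided by exon length, the 10 genes covered more than 4 orders of magnitude. Vim, the filament gene, had the highest level with a mean of 1409 CPM per kb and a range from 738 to 2181. Cdh1 followed at 141 CPM per kb (69.7 to 237) and Twist1 at 29.3 (19.5 to 37.5), and the ranges of these 3 genes did not overlap. The next 5 genes had means of 12.9 CPM per kb for Cdh2, 9.72 for Zeb1, 7.18 for Snai2, 4.43 for Zeb2 and 3.29 for Snai1. Neighbours in this order overlapped in their ranges, but Snai1 (1.26 to 6.02) lay below all values of Cdh2 and Zeb1, and Zeb1 was above Zeb2 in each of the 6 samples. Epcam at 0.578 CPM per kb and Prrx1 at 0.0475 lay below all of them in every sample. Transcripts of an epithelial cadherin and of vimentin were thus both abundant in the same lines, while Epcam was at most 2.05 CPM.

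**Figure D1:**
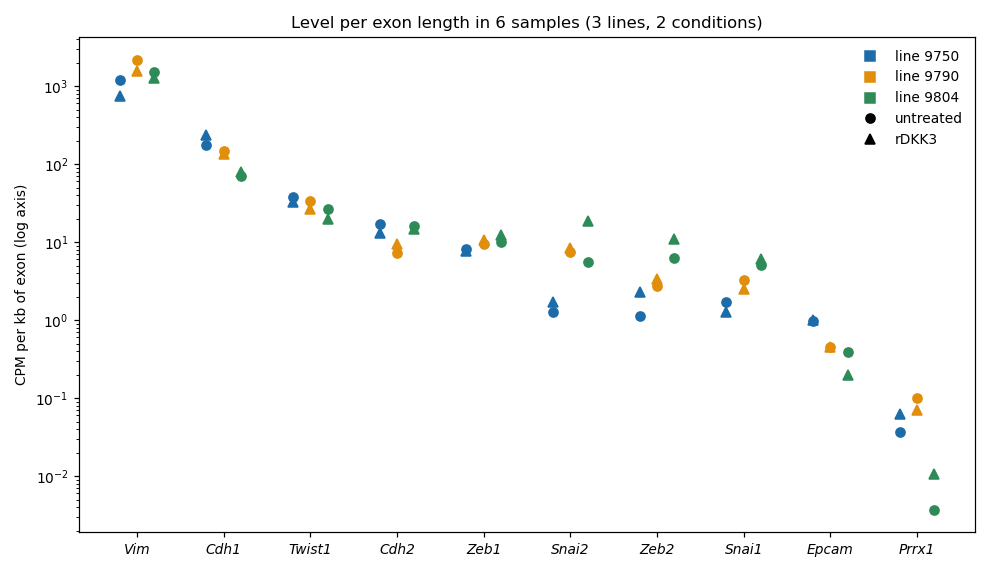
Level of each of the 10 genes in CPM per kb of exon (log axis) in the 6 samples, colored by line, with circles for untreated and triangles for rDKK3. Genes are ordered by their mean, from Vim at 1409 to Prrx1 at 0.0475 CPM per kb.

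The first comparison asked how the 3 Dkk3-null lines differ from each other. By quasi-likelihood F test in edgeR, p-values adjusted after Benjamini and Hochberg, 7 of the 10 genes differed between lines at an adjusted p under 0.05, against 32.2% of the 15214 genes tested. These were Vim, Cdh1, Cdh2, Snai1, Snai2, Zeb2 and Prrx1, and not Twist1 (adjusted p = 0.0518 in edgeR), Epcam (0.0659) or Zeb1 (0.120). DDKC_9804 had the lowest Cdh1 and the highest Zeb2, Snai1 and Snai2 when untreated and treated samples were averaged, and DDKC_9750 had the highest Cdh1 and the lowest levels of these 3 factors and of Vim. From DDKC_9750 over DDKC_9790 to DDKC_9804, the line means were in ascending order for 4 genes (Snai1, Snai2, Zeb1 and Zeb2) and in descending order for 3 (Cdh1, Epcam and Twist1). This order held within untreated and within treated samples for all of them except Snai2, whose untreated level was higher in DDKC_9790 than in DDKC_9804. The orders are descriptions, since each line stands for itself and the lines share 1 genotype. The value of every library shows the same separation by line for Cdh1 and Zeb2, with small gaps between the 2 libraries.

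**Figure D2:**
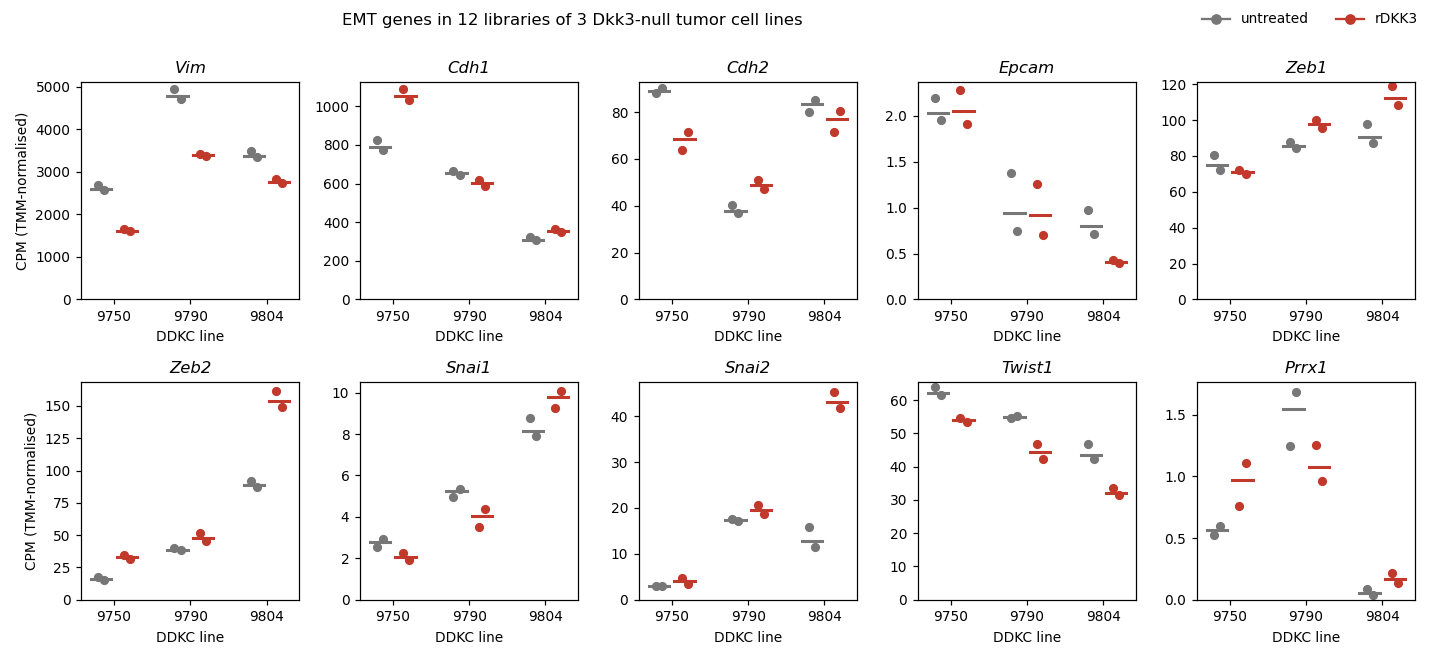
TMM-normalised CPM (linear axes from 0) of each gene in 12 libraries, by DDKC line, with gray for untreated and red for rDKK3; points are libraries and bars the value of the 2 libraries summed. Cdh1 falls and Zeb2 rises from DDKC_9750 to DDKC_9804, Vim is lower with rDKK3 in each line, and Snai2 stands highest in DDKC_9804 with rDKK3 at 43.1 CPM.

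Cdh1 (ENSMUSG00000000303.14, GRCm39 chr8:107329983-107396878, plus strand) encodes E-cadherin. It measured 789 CPM untreated and 1053 with rDKK3 in DDKC_9750, 653 and 603 in DDKC_9790, and 310.1 and 354 in DDKC_9804. The pairs of values of the 3 lines did not overlap. DDKC_9804 was below DDKC_9750 by a log2 difference of -1.47 (SE 0.18, edgeR adjusted p = 0.00989) and below DDKC_9790 by -0.93 (SE 0.18, adjusted p = 0.0265). DDKC_9790 against DDKC_9750, at -0.54 (SE 0.18), did not pass (edgeR adjusted p = 0.0845).

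Epcam (ENSMUSG00000045394.10, GRCm39 chr17:87943407-87958557, plus strand) encodes an epithelial cell adhesion molecule. Its level was 2.03 CPM untreated and 2.05 with rDKK3 in DDKC_9750, 0.945 and 0.918 in DDKC_9790, and 0.799 and 0.411 in DDKC_9804. These rest on few reads, from 61 counts in untreated DDKC_9750 down to 5 in treated DDKC_9804, and the 2 libraries of a sample differed by up to 59.5%. DDKC_9750 was above the other two in each sample, but no pair of lines passed the test, the nearest being DDKC_9804 against DDKC_9750 at a log2 difference of -1.68 (SE 0.44, edgeR adjusted p = 0.0610, and 0.0475 with no low-count filter).

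Available promoters among the 10 genes were read for CACCTG and its reverse complement CAGGTG, the E-box forms that Snail and Zeb zinc fingers are known to bind. RefSeq promoters (GRCm38.p6 table, 250 bases before the start) were at hand for 6 of the 10 genes, in 9 windows because Zeb2 has several. Cdh1, Cdh2, Snai2 and Zeb1 had none, so the Cdh1 promoter was not searched. The motif was held by 2 of the 9 windows, those of Epcam and Snai1, and by 17.2% of all 32851 promoters in the table. Epcam held it at 2 places, 187 and 19 bases before the start to the motif's first base, and 2 or more were held by 2.06% of promoters. Both sequences are shown because 1 belongs to an epithelial gene and 1 to a factor of this family. They are written 5′ to 3′ on the plus strand with the motif in capitals, and were matched to GRCm39 at chr17:87943157-87943406 for Epcam and chr2:167379865-167380112 for Snai1, upstream of the first annotated exon.
Epcam: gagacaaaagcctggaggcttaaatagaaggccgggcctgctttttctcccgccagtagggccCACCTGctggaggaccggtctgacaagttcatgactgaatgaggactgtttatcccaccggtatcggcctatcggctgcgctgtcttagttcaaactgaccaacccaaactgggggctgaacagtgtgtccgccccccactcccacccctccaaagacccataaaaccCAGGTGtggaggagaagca
Snai1: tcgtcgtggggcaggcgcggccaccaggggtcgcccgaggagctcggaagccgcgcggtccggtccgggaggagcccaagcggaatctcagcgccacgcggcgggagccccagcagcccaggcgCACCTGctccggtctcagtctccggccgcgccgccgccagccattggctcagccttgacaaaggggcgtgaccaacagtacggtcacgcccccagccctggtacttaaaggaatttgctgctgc
The single Snai1 motif starts 126 bases before the start. A match is a run of letters and not a measured binding site, and no binding data are part of these libraries. No motif was found in the windows of Vim, Zeb2, Twist1 and Prrx1, which says only that these letters are not there.

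Vim (ENSMUSG00000026728.10, GRCm39 chr2:13578738-13587637, plus strand) encodes the intermediate filament protein of mesenchymal cells. It measured 2604 CPM untreated and 1621 with rDKK3 in DDKC_9750, 4789 and 3406 in DDKC_9790, and 3381 and 2762 in DDKC_9804. DDKC_9790 had the highest value in both conditions. It exceeded DDKC_9750 by a log2 difference of 0.97 (SE 0.18, edgeR adjusted p = 0.0199), whereas DDKC_9804 against DDKC_9750 (0.57, SE 0.18, adjusted p = 0.0882) and against DDKC_9790 (-0.40, SE 0.18, adjusted p = 0.167) did not pass. The CPM ratio of Vim to Cdh1 was lowest in DDKC_9750, at 3.30 untreated and 1.54 with rDKK3. It was 7.34 and 5.65 in DDKC_9790, and 10.9 and 7.80 in DDKC_9804, so each line had a lower ratio when treated and the order of lines was kept.

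Cdh2 (ENSMUSG00000024304.15, GRCm39 chr18:16721934-16942303, minus strand) encodes N-cadherin. Its levels were 88.8 CPM untreated and 68.6 with rDKK3 in DDKC_9750, 37.8 and 48.9 in DDKC_9790, and 83.4 and 76.9 in DDKC_9804. DDKC_9790, which had the highest Vim, thus had the lowest Cdh2, by a log2 difference of -0.86 from DDKC_9750 (SE 0.21, edgeR adjusted p = 0.0385), and DDKC_9804 was higher than DDKC_9790 by 0.88 (SE 0.21, adjusted p = 0.0399). Both calls were lost when the second library of each sample was left out, with adjusted p of 0.0635 and 0.0721. DDKC_9804 and DDKC_9750 lay 0.03 apart on the log2 scale. Cdh1 exceeded Cdh2 in CPM in all 6 samples, by 3.72 times in untreated DDKC_9804 up to 17.2 times in untreated DDKC_9790.

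Zeb2 (ENSMUSG00000026872.19, GRCm39 chr2:44873644-45007407, minus strand) and Zeb1 (ENSMUSG00000024238.16, GRCm39 chr18:5591860-5775467, plus strand) encode related zinc finger repressors of epithelial genes. Zeb2 had 16.3 CPM untreated and 32.8 with rDKK3 in DDKC_9750, 38.8 and 48.2 in DDKC_9790, and 88.5 and 153 in DDKC_9804. The pairs of values did not overlap between lines, and all 3 contrasts passed: 0.91 for DDKC_9790 over DDKC_9750 (SE 0.20, edgeR adjusted p = 0.0316), 2.33 for DDKC_9804 over DDKC_9750 (SE 0.21, adjusted p = 0.00453) and 1.42 for DDKC_9804 over DDKC_9790 (SE 0.20, adjusted p = 0.0125). Zeb1 spanned a much smaller range, with 75.0 CPM untreated and 70.9 with rDKK3 in DDKC_9750, 85.3 and 97.9 in DDKC_9790, and 90.3 and 112 in DDKC_9804. No Zeb1 contrast between lines passed, the nearest being 0.46 for DDKC_9804 over DDKC_9750 (SE 0.15, edgeR adjusted p = 0.0983). The CPM ratio of Zeb1 to Zeb2 accordingly ran from 4.61 in untreated DDKC_9750 to 0.731 in treated DDKC_9804.

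Snai1 (ENSMUSG00000042821.8, GRCm39 chr2:167380115-167384734, plus strand) and Snai2 (ENSMUSG00000022676.8, GRCm39 chr16:14523716-14527249, plus strand) encode the repressors Snail and Slug. Snai1 measured 2.77 CPM untreated and 2.05 with rDKK3 in DDKC_9750, 5.24 and 4.05 in DDKC_9790, and 8.16 and 9.78 in DDKC_9804, on 21 to 286 counts. Its pairs of values did not overlap between lines, but only DDKC_9804 over DDKC_9750 passed, with a log2 difference of 1.89 (SE 0.31, edgeR adjusted p = 0.0182). Snai2 measured 2.97 CPM untreated and 4.0 with rDKK3 in DDKC_9750, 17.3 and 19.5 in DDKC_9790, and 12.8 and 43.1 in DDKC_9804. DDKC_9750 was the low one, with DDKC_9790 higher by a log2 difference of 2.42 (SE 0.44, edgeR adjusted p = 0.0195) and DDKC_9804 by 2.81 (SE 0.45, adjusted p = 0.0173). DDKC_9790 and DDKC_9804 overlapped.

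Twist1 (ENSMUSG00000035799.7, GRCm39 chr12:34007670-34009828, plus strand), a helix-loop-helix factor of mesoderm and EMT, had 62.1 CPM untreated and 53.9 with rDKK3 in DDKC_9750, 55.0 and 44.3 in DDKC_9790, and 43.6 and 32.2 in DDKC_9804. Its order of lines was that of Cdh1 and the reverse of that of Snai1, Zeb1 and Zeb2. Although the overall test of lines was not passed, DDKC_9804 was lower than DDKC_9750 by a log2 difference of -0.62 (SE 0.14, edgeR adjusted p = 0.0426), a call that was lost with the second library of each sample left out (adjusted p = 0.0597) and with no low-count filter applied (adjusted p = 0.0501). Prrx1 (ENSMUSG00000026586.17, GRCm39 chr1:163072688-163141279, minus strand), a homeobox factor, had 0.567 CPM untreated and 0.975 with rDKK3 in DDKC_9750, 1.55 and 1.08 in DDKC_9790, and 2 counts in each of the samples of DDKC_9804, under the floor. Over both conditions, DDKC_9804 had 4 counts against 56 in DDKC_9790, a normalized ratio of 0.0633 with a 95% interval from 0.0167 to 0.171 that covers counting error only. The difference passed the test (edgeR adjusted p = 0.0248), at levels of 1.55 CPM or less in every sample.

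Over the 3 contrasts between lines, 13 of 30 comparisons passed. DDKC_9790 against DDKC_9750 gave 3 genes higher and 1 lower, with 25.2% of all tested genes called in either direction. DDKC_9804 against DDKC_9750 gave 3 higher and 2 lower, with 16.3% of all genes called, and DDKC_9804 against DDKC_9790 gave 2 higher and 2 lower, with 20.3% called. The medians over the 10 genes were 0.59, 0.24 and -0.13 on the log2 scale, compared with -0.01, -0.02 and 0.02 over all tested genes.

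Other genes of the same processes were counted in lists. Regulators that keep the epithelial programme were detected in part, with 7 of 11 below 1 CPM in every sample, among them Esrp1, Grhl2 and Ovol1. Of the 4 tested, 3 were lower in DDKC_9804 than in DDKC_9750 and none higher, where 16.3% of all tested genes were called in either direction. The ETS factor Ehf fell from a line mean of 248 CPM in DDKC_9750 to 48.1 in DDKC_9790 and 2.64 in DDKC_9804, a log2 difference of -6.35 between the outer lines (SE 0.60, edgeR adjusted p = 0.00512). Elf3, of the same factor family, differed by -3.40 (SE 0.27, edgeR adjusted p = 0.00377) and the splicing regulator Esrp2 by -1.95 (SE 0.17, adjusted p = 0.00436). The list median for DDKC_9804 against DDKC_9750 was -2.67, beside -0.02 over all genes.

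Among 18 further epithelial surface and polarity genes, 15 were tested, of which 10 were lower and 1 was higher in DDKC_9804 than in DDKC_9750 (16.3% of all genes called), with a median of -2.26 beside -0.02 over all genes. Mal2, an apical transport protein, had line means of 102 CPM in DDKC_9750 and 1.335 and 1.37 in the other two, with a log2 difference of -5.96 for DDKC_9804 against DDKC_9750 (SE 0.50, edgeR adjusted p = 0.00402). The polarity gene Crb3 differed by -3.24 (SE 0.57, edgeR adjusted p = 0.0216), and Lsr, a receptor at contacts of 3 cells, by -3.05 (SE 0.14, adjusted p = 0.00130). Catenin and desmosome genes were split, with 12 of 13 tested, 1 higher and 4 lower in DDKC_9804 than in DDKC_9750 and a median of -0.80. Pkp1, a desmosome plaque gene, was higher by 4.22 (SE 0.62, edgeR adjusted p = 0.0144), whereas the desmosome genes Dsg2 and Dsp differed by -1.35 (SE 0.25, adjusted p = 0.0252) and -1.02 (SE 0.14, adjusted p = 0.0125). Besides the low Cdh1 of DDKC_9804, 10 of the 15 tested surface genes were thus called lower there than in DDKC_9750. Against DDKC_9790, 8 were lower and 0 higher in DDKC_9804 (20.3% of all genes called). DDKC_9790 against DDKC_9750 was split, with 3 surface genes higher and 4 lower (25.2% called).

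Among 8 other classical and related cadherins, 4 were tested. Cdh3, the P-cadherin gene, was lower in DDKC_9804 than in DDKC_9750 (log2 difference -4.76, SE 0.37, edgeR adjusted p = 0.00354), with line means of 10.6, 13.8 and 0.430 CPM in DDKC_9750, DDKC_9790 and DDKC_9804. Cdh17, a cadherin of liver and intestine, was higher in DDKC_9804 than in DDKC_9750 by 1.87 (SE 0.25, edgeR adjusted p = 0.0112). The endothelial cadherin Cdh5 was at or under 0.0540 CPM.

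Of 13 genes listed as other EMT transcription factors, 10 were tested, of which 6 were higher and 0 lower in DDKC_9804 than in DDKC_9750. Beside this, 16.3% of all genes were called, and the median was 1.33 beside -0.02 over all genes. Against DDKC_9790, DDKC_9804 had 4 higher and 0 lower (20.3% of all genes called). DDKC_9790 against DDKC_9750 was mixed, with 4 higher and 3 lower (25.2% called). The list is not limited to factors that promote EMT, since it also holds Id1 and Id2. Id2 was among the genes called higher than in DDKC_9750. Its log2 difference was 0.94 in DDKC_9804 (SE 0.18, edgeR adjusted p = 0.0277) and 1.38 in DDKC_9790 (SE 0.18, adjusted p = 0.01085). The forkhead gene Foxc2 had line means of 1.37, 31.8 and 84.4 CPM in DDKC_9750, DDKC_9790 and DDKC_9804, a log2 difference of 5.90 between the outer lines (SE 0.22, edgeR adjusted p = 0.000783). Twist2, the paralog of Twist1, was higher in DDKC_9804 by 3.74 (SE 0.21, edgeR adjusted p = 0.00198). Twist2 was thus highest, and Twist1 lowest, in DDKC_9804. Other mesenchymal genes were called in both directions, since of 27 tested among 34, 9 were higher and 5 lower in DDKC_9804 than in DDKC_9750 (16.3% of all genes called), with a median of 0.62. The proteoglycan gene Vcan was higher by 6.08 (SE 0.19, edgeR adjusted p = 0.000783) and the tropomyosin gene Tpm2 by 4.23 (SE 0.33, adjusted p = 0.00347), but Loxl2, a collagen crosslinking enzyme, was lower (-5.23, SE 0.34, adjusted p = 0.00246).

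**Figure D3:**
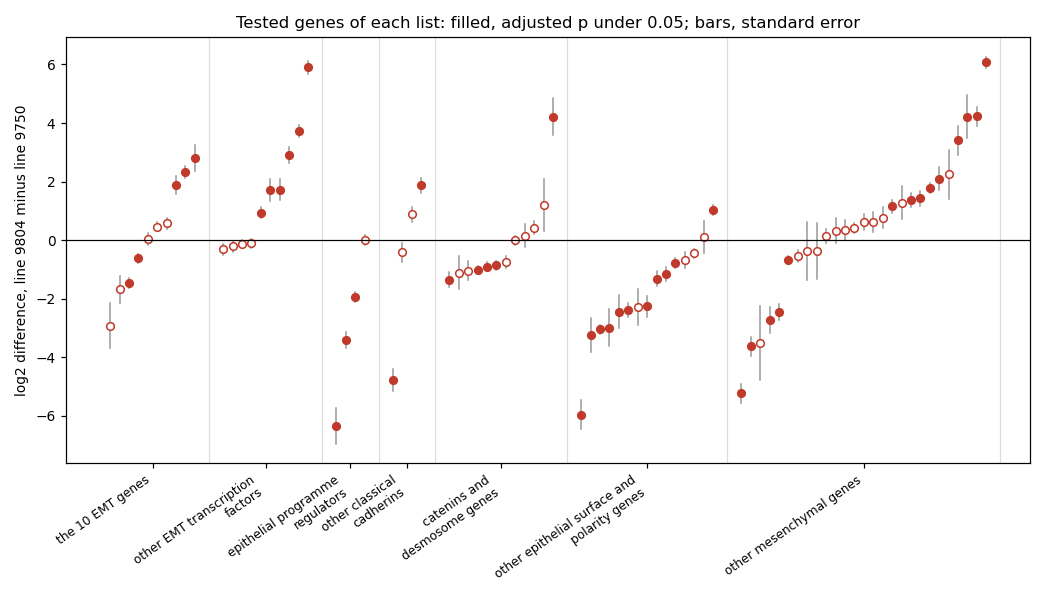
Log2 difference of DDKC_9804 minus DDKC_9750 for the tested genes of each list, one point per gene with its standard error as a bar, filled where edgeR's adjusted p was under 0.05. Epithelial programme regulators reach down to -6.35 (Ehf), and EMT transcription factors reach up to 5.90 (Foxc2).

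The genes whose pattern over the 6 samples was most like that of Cdh1, among 10440 protein-coding genes with a mean of at least 5 CPM, were Ehf (Pearson r of log2 CPM 0.995), Ror1 (0.995), Ppp1r13b (0.994), Cacul1 (0.994) and Enpp3 (0.994). Those most like Vim were Pgls (0.997), Rrm2 (0.995), Rps6 (0.995), Msmo1 (0.995) and Tacc3 (0.993). The 6 samples are 3 lines in 2 conditions, so these values describe the samples and carry no test. A search over so many genes with so few samples finds high values readily.

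The second comparison asked whether rDKK3 changed these genes in lines that cannot make DKK3. None of the 10 passed edgeR's quasi-likelihood test with line and treatment in the model at an adjusted p under 0.05, where 0.00657% of all genes did, a single gene, Lcn2, which encodes lipocalin 2 (edgeR adjusted p = 0.0131). DESeq2 called none of the 8 for which it gave an adjusted p, all but Epcam and Prrx1. At an unadjusted p under 0.05, 3 of the 10 genes were called by edgeR (Vim, Zeb2 and Twist1), beside 8.29% of all genes. In all 3 lines the same direction was seen for 4 of 10, Vim and Twist1 lower and Zeb2 and Snai2 higher, beside 32.8% of all genes. Among lines, 3 pairs can give no exact permutation p below 0.25. The fit of each gene has 2 residual degrees of freedom, to which edgeR adds 3.30 prior degrees of freedom estimated over all genes.

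Vim averaged 3591 CPM ± 1108 untreated and 2596 ± 904 with rDKK3 (SD, n = 3 lines). The treated sample held 0.623 times the untreated level in DDKC_9750 (95% interval 0.612 to 0.633, counting error only), 0.711 times in DDKC_9790 (0.704 to 0.718) and 0.817 times in DDKC_9804 (0.807 to 0.827). Across lines the log2 fold change was -0.49 (SE 0.14, edgeR adjusted p = 0.597). Each line was thus lower, by amounts beyond counting error, but the 3 lines did not suffice for a call after adjustment over all genes.

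Zeb2 averaged 47.9 ± 36.9 CPM untreated and 78.1 ± 65.7 with rDKK3 (SD, n = 3 lines), where the SD is the spread between lines. The ratio of treated to untreated was 2.01 in DDKC_9750 (1.75 to 2.32), 1.24 in DDKC_9790 (1.13 to 1.36) and 1.73 in DDKC_9804 (1.64 to 1.84). The log2 fold change was 0.70 (SE 0.16, edgeR adjusted p = 0.597). Twist1 averaged 53.5 ± 9.32 CPM untreated and 43.5 ± 10.9 with rDKK3, with ratios of 0.869 (0.789 to 0.956), 0.806 (0.738 to 0.881) and 0.739 (0.660 to 0.826) in DDKC_9750, DDKC_9790 and DDKC_9804. Its log2 fold change was -0.32 (SE 0.12, edgeR adjusted p = 0.597). Vim and Twist1, both mesenchymal genes, thus had values below untreated in each line where Zeb2 had values above.

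Snai2 averaged 11.02 ± 7.33 CPM untreated and 22.2 ± 19.7 with rDKK3 (SD, n = 3 lines). Its ratio was 3.37 in DDKC_9804 (2.96 to 3.83), but 1.35 in DDKC_9750 (0.907 to 1.97) and 1.13 in DDKC_9790 (0.977 to 1.30), whose intervals hold 1. The log2 fold change was 0.81 (SE 0.35, edgeR adjusted p = 0.623), and without DDKC_9804 it was 0.28. The Snai2 value therefore rests mainly on DDKC_9804.

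Cdh1 averaged 584 ± 247 CPM untreated and 670 ± 354 with rDKK3 (SD, n = 3 lines; log2 fold change 0.16, SE 0.15, edgeR adjusted p = 0.763). The treated level was 1.33 times the untreated one in DDKC_9750 (1.30 to 1.37) and 1.14 times in DDKC_9804 (1.10 to 1.18), but 0.924 times in DDKC_9790 (0.901 to 0.947). Cdh2 had ratios of 0.773 in DDKC_9750 (0.710 to 0.840), 1.29 in DDKC_9790 (1.18 to 1.42) and 0.922 in DDKC_9804 (0.856 to 0.993). Its mean was 70.0 ± 28.0 CPM untreated and 64.8 ± 14.4 with rDKK3 (log2 fold change -0.042, SE 0.17, edgeR adjusted p = 0.947). In each line, then, the ratios of the 2 cadherins lay on opposite sides of 1 with intervals that exclude 1, and DDKC_9790 was opposite to the other two. The margin was small for Cdh2 in DDKC_9804, whose upper bound of 0.993 leaves out error of normalization. The log2 ratio of Cdh2 there was -0.12 with TMM and -0.088 with RLE normalization. The difference between lines was not tested, because the summed counts leave no replicate within a line and condition.

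Zeb1 had a log2 fold change of 0.14 (SE 0.12, edgeR adjusted p = 0.752), with ratios of 0.945 in DDKC_9750 (0.868 to 1.03), 1.15 in DDKC_9790 (1.08 to 1.22) and 1.24 in DDKC_9804 (1.16 to 1.32). Snai1 had -0.16 (SE 0.24, edgeR adjusted p = 0.862), and the intervals of its ratios, 0.740, 0.773 and 1.20, all hold 1. Epcam had -0.26 (SE 0.36, edgeR adjusted p = 0.850), on 5 to 21 counts in treated samples. Prrx1 had 0.22 (SE 0.52, adjusted p = 0.966 in edgeR), with 2 to 20 counts in treated samples, and the interval of counting error held 1 in each line for both genes.

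**Figure D4:**
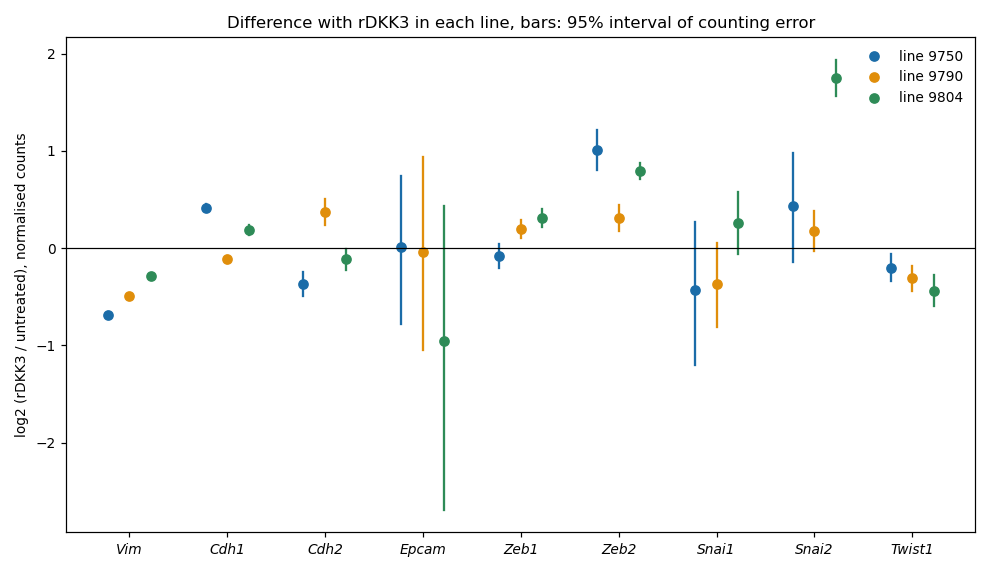
Log2 ratio of rDKK3 to untreated normalized counts for 9 genes in DDKC_9750, DDKC_9790 and DDKC_9804, with bars for the 95% interval of counting error and a line at 0; Prrx1 is left out because DDKC_9804 is under the floor. All 3 lines lie below 0 for Vim and Twist1 and above 0 for Zeb2 and Snai2, and DDKC_9790 lies opposite to the others for Cdh1 and Cdh2.

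How the 2 libraries of each sample are counted decided the calls. When all 12 libraries entered as separate replicates, edgeR called 4 of the 9 genes tested there (all but Prrx1), beside 19.0% of all genes, with log2 fold changes of -0.49 for Vim (adjusted p = 0.00135), 0.70 for Zeb2 (adjusted p = 0.00161), -0.31 for Twist1 (adjusted p = 0.00385) and 0.85 for Snai2 (adjusted p = 0.0311). The sizes are close to those from summed counts, but that fit counts the 2 libraries of a sample as independent, although they differ by less than sampling noise once the shift between library series is allowed for. With that shift in the model, 4 genes were called as well, beside 21.3% of all genes. No gene of the other lists passed with rDKK3 on summed counts either. The medians were -0.07 for the other EMT factors, 0.0037 for epithelial programme regulators, -0.26 for epithelial surface genes, -0.15 for catenin and desmosome genes, 0.08 for other cadherins, 0.05 for other mesenchymal genes and -0.35 for ductal markers, beside -0.01 over all tested genes. The ductal markers went both ways. In all 3 lines 2 were higher, Sox9 (log2 fold change 0.34, edgeR adjusted p = 0.597) and Muc1 (0.45, adjusted p = 0.610). Another 4 were lower in all 3 lines, among them the keratin genes Krt7 (-0.84), Krt19 (-0.55) and Krt8 (-0.46), beside -0.49 for Vim. None of these passed either (edgeR adjusted p = 0.597 each). Gapdh, a glycolysis gene often used as a reference, was also lower in all 3 lines (-0.55, edgeR adjusted p = 0.597). The summed ductal markers above were lower at both ends of their range in treated samples, as was depth. The range of the fibroblast sum had lower ends too, but its 2 tested genes went both ways (median log2 fold change 0.14). Col1a1 had -0.29 and Pdgfra 0.57. The leukocyte sum was higher at both ends, and of its genes Cd68 was higher in all 3 lines (log2 fold change 0.88, SE 0.22, edgeR adjusted p = 0.597). The part of these markers and of depth in the values above was not tested.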

How the data were processed

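RNA was sequenced from 3 DDKC lines with and without rDKK3, in 12 libraries. For the deposited files, the authors mapped paired reads of 50 bases with STAR 2.7.9a on GRCm39, counted them by strand on GENCODE genes with GenomicAlignments and deposited raw counts without normalization. Differential expression by the authors used DESeq2 1.38.0, none of which entered here. Of 57278 genes, 29823 had a count, and 0 value columns lacked a library.

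Software was edgeR 4.0.16 and DESeq2 1.42.0 under R 4.3.3. The 2 libraries of a line and condition were summed, since they differed by less than sampling noise (mean deviance per degree of freedom 0.764 with a shift between library series, 6.39 without). edgeR's quasi-likelihood test on a design of line plus treatment, with TMM normalization and adjustment after Benjamini and Hochberg (threshold 0.05), covered the 15214 genes that passed edgeR's filter (minimum count 10), among them all 10 genes described. Lines pair the samples, as the labels give them. Deviations from the mean of each condition correlated at 0.802, 0.866 and 0.786 between the treated and untreated samples of a line. Correlations between lines were negative, but centering on the mean of 3 lines favors this, so they add no separate evidence. P-values measure how far the treated and untreated samples of the 3 lines disagree in their difference, and in contrasts between lines the untreated and treated samples of a line stand in as its replicates. Log2 CPM for correlations used a prior count of 2. Intervals within a line are exact 95% intervals of the count ratio and cover counting error only. Exon lengths are unions of GENCODE M39 basic exons. The tests were checked on simulated counts.

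The 10 genes and all lists were chosen with earlier results of these data known. All 10 genes are named, and from other lists up to 3 genes with the largest absolute log2 difference among those past the threshold in the contrast described. Genes outside this rule, such as Grhl2, Cdh5, single markers and Lcn2, were named after their values were seen. Alternatives were RLE normalization, DESeq2, no filter, 12 separate libraries with and without the library series, each library number or line left out, and no line term. Some alleles and genes are not reported here.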

Additional observations from a re-analysis of the deposited data

Results flagged for a closer look

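Of the 10 genes, 6 had values in opposite directions between lines with rDKK3, and in each case the difference was not tested. In 4 of them, described first, both libraries of each line lay on the same side and no library had fewer than 3 counts. The log2 ratio of treated to untreated Cdh1 was 0.42 in DDKC_9750 and 0.19 in DDKC_9804, but -0.11 in DDKC_9790. For Cdh2 it was 0.37 in DDKC_9790, but -0.37 in DDKC_9750 and -0.12 in DDKC_9804. Snai1 had 0.26 in DDKC_9804, and -0.44 in DDKC_9750 and -0.37 in DDKC_9790, each within counting error. Zeb1 had 0.20 in DDKC_9790 and 0.31 in DDKC_9804, and -0.081 in DDKC_9750, the last within counting error. The other two were Epcam, at 0.0092 in DDKC_9750, -0.042 in DDKC_9790 and -0.96 in DDKC_9804, and Prrx1, at 0.78 in DDKC_9750 and -0.52 in DDKC_9790 with DDKC_9804 under the floor, all within counting error.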

How the results depend on the processing

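The number of genes changed by rDKK3 depended on the setting. It was 1 with summed counts, 96 with DESeq2, 90 without the filter on low counts, and 2558 with 12 separate libraries and the line or 2867 with the library series added. Leaving out a line gave 0 to 2 genes (0 without DDKC_9750 or DDKC_9790, 2 without DDKC_9804), and leaving out a library number gave 1. Without the replicate block, that is without the line that pairs the samples, 0 genes passed in edgeR and 106 had an unadjusted p under 0.05. Of the 10 genes, none that had an adjusted p passed with rDKK3 in any of these except the fits on 12 libraries. Prrx1 was not tested in the fits on 12 libraries, Prrx1 and Epcam were not tested without replicate 2, and DESeq2 gave neither an adjusted p. The number of genes differing between lines was 4899, and 10568 or 10935 with 12 libraries; other settings gave 4345 to 6781. Of 106 values with rDKK3 for the 10 genes, 94 kept direction and side of the threshold, 2 had no adjusted p, 8 passed only with 12 libraries, and 2 changed sign, both without DDKC_9750: leaving out a line gave -0.23 to 0.13 for Cdh2 and -0.21 to 0.95 for Prrx1. Of 198 differences between lines, 167 kept both, 26 newly passed, 4 no longer passed and 1 changed sign, Cdh2 for DDKC_9804 against DDKC_9750, with -0.0066 without replicate 2 and 0.026 without replicate 1. Outside the fits on 12 libraries, the newly passed ones were all DDKC_9804 against DDKC_9750: Vim with DESeq2 (adjusted p = 0.0170), and in edgeR without the filter Vim (adjusted p = 0.0375), Epcam (0.0475) and Prrx1 (0.0308). The cause was not tested, except that the 12-library fits have more residual samples by construction. Depth limits Epcam and Prrx1, with 61 counts or fewer in every sample.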
